A study of Mus musculus with 8 samples.

Results

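The 9 genes described here mark mesothelium, the simple squamous layer that covers the pleura, pericardium and peritoneum, or the simple epithelia to which it is related. They are Msln, Upk3b, Upk1b, Wt1, Lrrn4 and Gpm6a, which are used as mesothelial markers, and the keratins Krt8, Krt18 and Krt19. They were chosen by name, and each matched 1 of the 48607 assembled loci of the gene table, so all 9 members were found. The data are RNA-seq of entire aortas from mice that all lacked apolipoprotein E and had been fed a Western diet for 12 weeks, so every group was hyperlipidemic and atherosclerosis-prone. The question of the study was what changes when NPRC, the natriuretic peptide receptor encoded by Npr3, is lost as well. By title, 5 libraries were ApoE-/- and 3 were NPRC-/-ApoE-/-. The NPRC-/- line was made by CRISPR as a frameshift mutation in mice of C57BL/6 background and crossed with ApoE-/- mice, so the receptor was lost in the whole animal. The age of the mice at collection is not given in the sources used here. Nothing in the labels says more of the animals behind the libraries, so the p-values below measure the spread between these libraries.

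For 4 of the 8 libraries the genotype entry contradicts the title. The libraries titled ApoE-/- 4 and ApoE-/- 5 were entered as NPRC-/-ApoE-/-, and those titled NPRC-/-ApoE-/- 1 and NPRC-/-ApoE-/- 2 were entered as ApoE-/-. Libraries are named here by title, the titled grouping is given first, and the grouping by genotype entry stands beside it. Total counts ran from 62969165 to 86693276 per library. Npr3 itself did not separate the titles: it stood at 0.62 to 1.69 FPKM (fragment counts scaled to transcript length and library size) in the 5 libraries titled ApoE-/- and at 1.13 to 1.39 FPKM in the 3 titled NPRC-/-ApoE-/-, with a log2 fold change of 0.10 ± 0.28 (SE; edgeR adjusted p = 0.901). A frameshift need not lower an RNA level, so Npr3 does not decide between the titles and the genotype entries.

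Mesothelial cells keep an epithelial form with keratin filaments and junctions, yet arise from mesoderm and also make vimentin-type filaments. Msln encodes mesothelin, a cell-surface glycoprotein, Upk3b and Upk1b encode uroplakin-family membrane proteins, and Wt1 encodes a zinc-finger transcription factor of mesothelium and epicardium. Lrrn4 and Gpm6a encode membrane proteins that are also made by neurons. Keratins work in pairs of a type II and a type I chain: KRT8 pairs with KRT18 or KRT19 in simple epithelia. The aortic wall proper has endothelium, smooth muscle and adventitia, whereas mesothelium lies on the serous surfaces of the chest and abdomen that border the vessel.

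In the GRCm38 build, Msln lies on chromosome 17 (25748613 to 25754377, minus strand), Upk3b on chromosome 5 (136038496 to 136046487, plus strand) and Upk1b on chromosome 16 (38773184 to 38800328, minus strand). Wt1 lies on chromosome 2 (105126529 to 105173616, plus strand), as does Lrrn4 (132868305 to 132880891, minus strand). Krt19 lies on chromosome 11 (100140810 to 100146120, minus strand) and Gpm6a on chromosome 8 (54779519 to 55060871, plus strand). Krt8 (101996698 to 102004482, minus strand) and Krt18 (102028180 to 102032027, plus strand) are divergent neighbours on chromosome 15, with 23697 bases between them. These are the spans of the assembled loci, which hold exons, introns and untranslated regions together, and 6 of the 9 equal the GENCODE M21 gene. The locus of Gpm6a starts upstream of the GENCODE gene, whose span holds other annotated transcripts. The lincRNA Gm36026 overlaps Krt8 on the opposite strand, and since the use of strand in counting is not stated, reads of this pair cannot be told apart.

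RefSeq promoter sequences (build GRCm38.p6) were at hand for 5 of the 9 members, and Gpm6a had 2 start sites. They are shown because Upk3b, Lrrn4 and Gpm6a were highest in the same library. The keratin gene Krt8 was not, and Krt18 was so by FPKM alone. Each run reads 5′ to 3′ on the gene's own strand and ends just before the gene start of RefSeq or GENCODE, whichever lies farther upstream, and capitals mark a match to a searched motif.
Upk3b, chr5:136038246-136038495, plus strand: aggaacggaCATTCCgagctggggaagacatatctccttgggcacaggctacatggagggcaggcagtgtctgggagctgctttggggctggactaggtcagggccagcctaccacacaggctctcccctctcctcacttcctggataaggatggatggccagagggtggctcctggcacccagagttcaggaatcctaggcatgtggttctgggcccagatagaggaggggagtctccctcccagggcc
Lrrn4, chr2:132880892-132881112, minus strand: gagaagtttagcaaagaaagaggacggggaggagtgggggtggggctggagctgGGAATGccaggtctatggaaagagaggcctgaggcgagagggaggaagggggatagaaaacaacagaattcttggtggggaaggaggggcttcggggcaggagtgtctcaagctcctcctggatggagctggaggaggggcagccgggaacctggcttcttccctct
Gpm6a, first start, chr8:54779184-54779433, plus strand: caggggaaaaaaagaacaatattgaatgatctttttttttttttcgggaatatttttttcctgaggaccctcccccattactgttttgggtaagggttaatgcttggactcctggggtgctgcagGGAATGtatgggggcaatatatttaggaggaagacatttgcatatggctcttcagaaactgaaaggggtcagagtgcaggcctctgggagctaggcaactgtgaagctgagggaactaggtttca
Krt18, chr15:102027966-102028179, plus strand: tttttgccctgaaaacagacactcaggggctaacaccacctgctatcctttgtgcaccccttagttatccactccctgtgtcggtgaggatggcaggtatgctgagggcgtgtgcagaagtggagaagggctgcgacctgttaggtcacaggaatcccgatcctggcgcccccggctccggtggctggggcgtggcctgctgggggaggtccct
Krt8, chr15:102004483-102004592, minus strand: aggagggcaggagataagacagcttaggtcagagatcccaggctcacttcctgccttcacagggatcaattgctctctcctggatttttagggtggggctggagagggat
The motifs GGAATG (the core bound by TEAD factors), GGGCGG (the GC box), TATAAA (the TATA box) and GCGTGGG (a core bound by WT1 and EGR factors) were searched on both strands in the 250 bases before each RefSeq start. GGAATG was found 241 bases before the start of Upk3b, on the antisense strand and thus printed as its reverse complement, 196 bases before that of Lrrn4 and 125 bases before the first start of Gpm6a. The same letters occur in 12.6% of the 32851 promoters of this length. TATAAA was found at the second start of Gpm6a, 211 bases upstream on the antisense strand, and occurs in 12.4% of promoters. GGGCGG, present in 32.7% of promoters, and GCGTGGG, present in 4.3%, were not found in the 6 windows, and none of the 4 motifs was found before Krt8 or Krt18. These are matches of letters, not measured binding sites.

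All members except Krt18 were scarce in whole aorta. Per transcript length, mean levels over the 8 libraries were 2.51 FPKM for Krt18, 0.974 for Gpm6a, 0.31 for Upk3b, 0.25 for Lrrn4, 0.21 for Msln, 0.207 for Krt19, 0.113 for Upk1b, 0.0713 for Krt8 and 0.0537 for Wt1. Only Krt18 reached 1 FPKM in 3 or more libraries, the minimum set for the test across loci, and it did so in all 8. The other 8 members were below that minimum, so their comparisons come from a fit of all 44689 loci with a count. Of the 72 values of members in libraries, 10 were a count of 0, and a count of 0 allows a level of up to 3 counts, or 0.0346 to 0.0476 CPM (counts scaled to the library total) depending on the library. Intervals and limits of this kind cover counting error only.

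The library ApoE-/- 2, which is ApoE-/- by both labels, stood above the other 7 for most members. It had the highest library-scaled level (CPM with TMM scaling) of 7 of the 9 genes, all but Krt8 and Krt18, whereas it was the highest library at 12% of the 44689 loci. For Krt18 the order depended on the scale: by FPKM, ApoE-/- 2 was the highest at 3.34 against 3.26 in ApoE-/- 4. It was the only library in which Msln, Upk3b, Krt19 and Gpm6a reached 1 FPKM. In 4 members, Msln, Upk3b, Upk1b and Krt19, NPRC-/-ApoE-/- 3 came second, an order found at 1.88% of loci. This order was noticed in the data, and the shares are given as description.

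**Figure D1:**
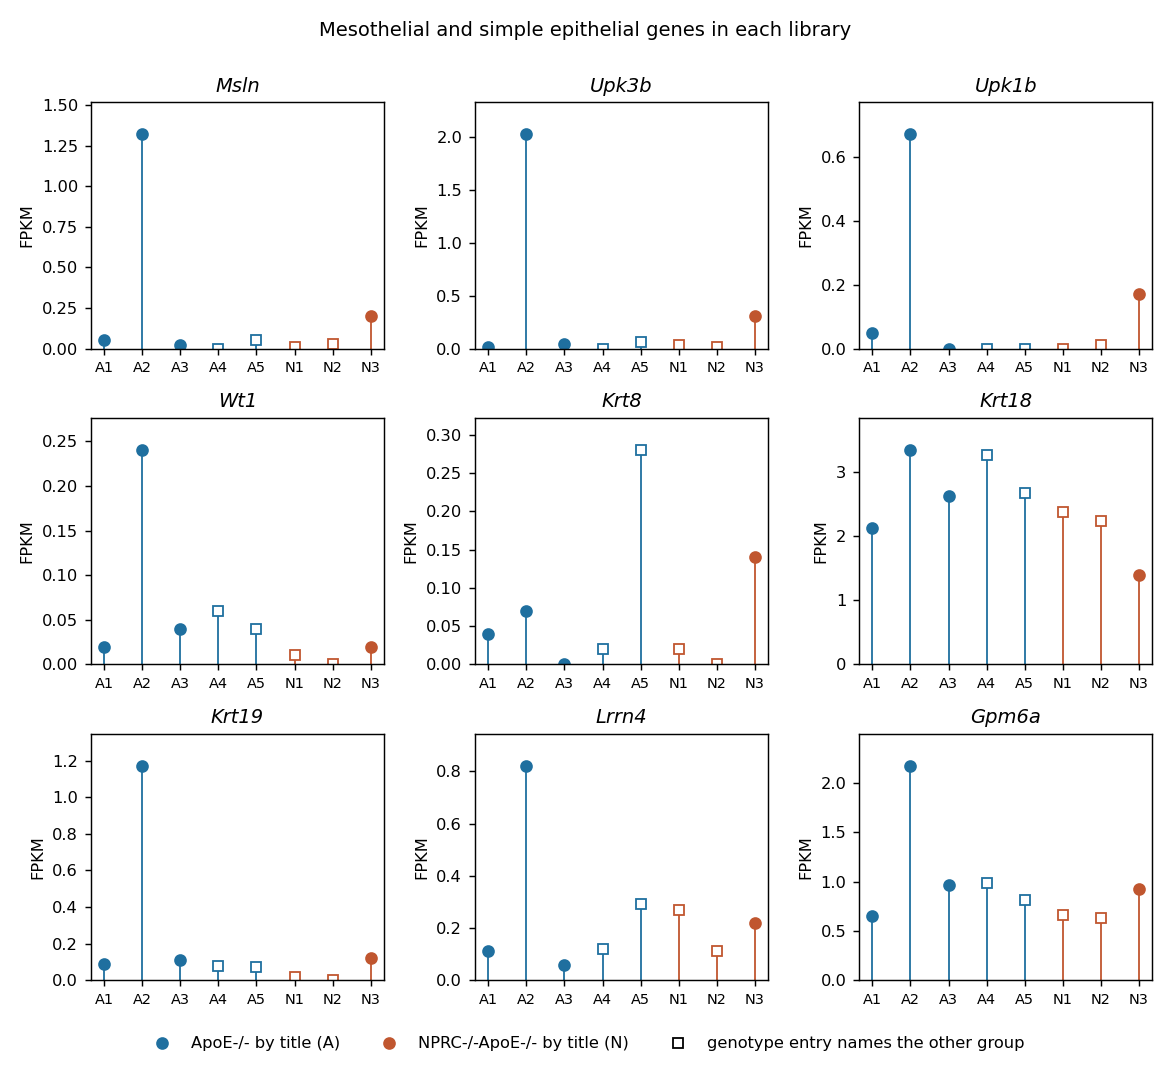
FPKM (vertical axis, a separate linear scale for each gene, from 0) of the 9 genes in each library (horizontal axis; A, titled ApoE-/-; N, titled NPRC-/-ApoE-/-). Each point is 1 library, and open squares mark the 4 libraries whose genotype entry names the other group. A2 stands far above the rest for Msln (1.32 FPKM), Upk3b (2.02), Upk1b (0.67), Wt1 (0.24), Krt19 (1.17) and Lrrn4 (0.82), while Krt8 is highest in A5 (0.28) and Krt18 lies between 1.4 and 3.34 throughout.

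Msln stood at 0.05, 1.32, 0.02, 0 and 0.05 FPKM in ApoE-/- 1 to 5 and at 0.01, 0.03 and 0.2 FPKM in NPRC-/-ApoE-/- 1 to 3. ApoE-/- 2 held 329 of the 444 counts of the gene in the series, or 74.1%, and its CPM was 5.9 times that of the next library, NPRC-/-ApoE-/- 3 (exact 95% interval 4.52 to 7.8). The groups overlapped, and 6 of the 8 libraries held 15 counts or fewer. Upk3b stood at 0.01, 2.02, 0.04, 0 and 0.06 FPKM in ApoE-/- 1 to 5 and at 0.03, 0.01 and 0.31 in NPRC-/-ApoE-/- 1 to 3. The order of the first 2 libraries was the one of Msln, and ApoE-/- 2 held 77.5% of the 741 counts, 6.01 times the CPM of NPRC-/-ApoE-/- 3 (4.9 to 7.42). Upk1b stood at 0.05, 0.67, 0, 0 and 0 FPKM in ApoE-/- 1 to 5 and at 0, 0.01 and 0.17 in NPRC-/-ApoE-/- 1 to 3. It was thus at a count of 0 in 4 libraries, with 114 counts in ApoE-/- 2 and 39 in NPRC-/-ApoE-/- 3.

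Wt1, the transcription factor of the set, stood at 0.02, 0.24, 0.04, 0.06 and 0.04 FPKM in ApoE-/- 1 to 5 and at 0.01, 0 and 0.02 in NPRC-/-ApoE-/- 1 to 3. Here NPRC-/-ApoE-/- 3 was among the low libraries, unlike in the surface proteins above, and ApoE-/- 4 came second. Wt1 was the only member whose titled groups did not overlap on the CPM scale, a separation in this direction seen at 3.34% of loci. The margin was narrow: ApoE-/- 1 had 13 counts (0.152 CPM) and NPRC-/-ApoE-/- 3 had 12 counts (0.146 CPM). Over the groups, Wt1 had 231 counts in 5 libraries titled ApoE-/- and 18 counts in 3 titled NPRC-/-ApoE-/-.

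Lrrn4 stood at 0.11, 0.82, 0.06, 0.12 and 0.29 FPKM in ApoE-/- 1 to 5 and at 0.27, 0.11 and 0.22 in NPRC-/-ApoE-/- 1 to 3. ApoE-/- 2 was again the highest, at 2.9 times the CPM of the next library (2.3 to 3.67), and below it the groups were mixed. Gpm6a stood at 0.65, 2.17, 0.96, 0.99 and 0.81 FPKM in ApoE-/- 1 to 5 and at 0.66, 0.63 and 0.92 in NPRC-/-ApoE-/- 1 to 3. It was the evenest of the 6 mesothelial markers, present in every library with 163 counts or more, and ApoE-/- 2 was 2.01 times the next library (1.75 to 2.3).

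The 3 keratins followed 3 different courses. Krt18, the type I partner of KRT8, stood at 2.13, 3.34, 2.63, 3.26 and 2.68 FPKM in ApoE-/- 1 to 5 and at 2.38, 2.24 and 1.4 in NPRC-/-ApoE-/- 1 to 3. ApoE-/- 4 and ApoE-/- 2 were its highest libraries, with a ratio of their CPM of 1.06 (0.929 to 1.22), and NPRC-/-ApoE-/- 3 was the lowest. Krt8, the type II chain, stood at 0.04, 0.07, 0, 0.02 and 0.28 FPKM in ApoE-/- 1 to 5 and at 0.02, 0 and 0.14 in NPRC-/-ApoE-/- 1 to 3. Its highest libraries were ApoE-/- 5 with 50 counts and NPRC-/-ApoE-/- 3 with 29, both entered as NPRC-/-ApoE-/-, and ApoE-/- 2 held 12. Krt18 was therefore above Krt8 in every library, also where Krt8 was at 0. Krt19 stood at 0.09, 1.17, 0.11, 0.08 and 0.07 FPKM in ApoE-/- 1 to 5 and at 0.02, 0 and 0.12 in NPRC-/-ApoE-/- 1 to 3. It shared the peak of Msln and Upk3b in ApoE-/- 2, at 8.68 times the CPM of the next library (5.65 to 13.9).

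Between the titled groups, 1 of the 9 members passed the criterion of the study, which asks for more than a 2-fold difference and p below 0.05 before adjustment. Wt1 fell by 3.07 ± 1.07 on the log2 scale (SE) in NPRC-/-ApoE-/- (edgeR adjusted p = 0.394), with group means of 0.08 ± 0.0906 FPKM (SD, n = 5) and 0.01 ± 0.01 FPKM (SD, n = 3). At the same criterion 3.45% of the 44689 loci were lower in NPRC-/-ApoE-/-, and 0 loci had an adjusted p below 0.05 in edgeR, with 4666 loci at an unadjusted p below 0.05. Other tools gave 937 loci (DESeq2), 3 (limma on log2(FPKM + 1)), 13 (limma on log2(FPKM + 0.1)) and 6 (limma with array weights) at an adjusted p below 0.05, and no member was among them, but DESeq2 gave no p for Msln, Upk3b, Upk1b and Krt19. In DESeq2 the adjusted p of Wt1 was 0.051, and over all settings tried it ran from 0.051 to 1. Without ApoE-/- 2 the criterion was missed by Wt1, at -2.18 ± 0.96 (edgeR adjusted p = 0.603). It was also missed with the replicate number as a block (-2.69 ± 1.46) and in the 3 limma fits, at -0.09 ± 0.06 on log2(FPKM + 1), -0.60 ± 0.32 on log2(FPKM + 0.1) and -0.10 ± 0.06 with array weights, scales that understate the change of a gene at this level. Genes of other cell types differed by title in the same fit, where 9 of 10 neuron genes and 5 of 10 macrophage genes were called lower in NPRC-/-ApoE-/-, with medians of -4.51 and -1.14 on the log2 scale, and 1 of 10 fibroblast genes was, with a median of -0.85. Summed levels were 14.7 to 59.6 FPKM against 11.3 to 20.6 for the neuron list, 742 to 2303 against 348 to 1159 for the macrophage list and 748 to 1908 against 428 to 1079 for the fibroblast list, all with overlapping groups. All 10 smooth muscle genes had a log2 fold change above 0 (median 0.64), 9 of them at an unadjusted p below 0.05 but 0 past the 2-fold criterion. By genotype entry 0 genes of these lists were called, where 1.76% of the 44689 loci were called in either direction. Their medians were then -1.53 (neuron), -0.16 (macrophage), -0.10 (fibroblast) and 0.12 (smooth muscle). The part of these lists in the difference of Wt1 was not tested. In bulk tissue, fewer cells of a type and less RNA per cell cannot be told apart.

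The other 8 members did not pass in either direction. Krt19 had a log2 fold change of -2.53 ± 1.34 (edgeR adjusted p = 0.527), from 0.304 ± 0.484 FPKM (SD, n = 5) in ApoE-/- and 0.0467 ± 0.0643 FPKM (SD, n = 3) in NPRC-/-ApoE-/-. Msln had -1.67 ± 1.67 (adjusted p = 0.695), Upk3b -1.74 ± 1.84 (adjusted p = 0.708) and Upk1b -1.06 ± 1.95 (adjusted p = 0.857). Their standard errors were as large as the differences or nearly so. Gpm6a had -0.56 ± 0.39 (adjusted p = 0.579), Lrrn4 -0.40 ± 0.76 (adjusted p = 0.861) and Krt8 -0.48 ± 1.41 (adjusted p = 0.919). Krt18, tested among the 20506 loci above the minimum, had -0.48 ± 0.24 (adjusted p = 0.411), from 2.81 ± 0.499 FPKM (SD, n = 5) and 2.01 ± 0.53 FPKM (SD, n = 3). In that fit 2.39% of loci were lower at the criterion and 0 had an adjusted p below 0.05, with 2797 at an unadjusted p below 0.05, against 650 by DESeq2, 2 and 0 by limma on the same scales and 1168 with array weights, none of them Krt18. All 9 point estimates were below 0, with a median of -1.06, against 53.2% of all 44689 loci and a median of -0.04, and they share the libraries that set them.

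ApoE-/- 2 set the direction of 4 of these differences. Without it, the log2 fold change was 1.52 ± 1.17 for Msln, 2.09 ± 1.26 for Upk3b, 2.21 ± 1.88 for Upk1b and 0.53 ± 0.53 for Lrrn4, each with the opposite sign and none past the criterion (edgeR adjusted p = 0.665, 0.641, 0.694 and 0.745). Krt19 was at -0.82 without it. Krt8 changed sign without ApoE-/- 5 (0.69) or NPRC-/-ApoE-/- 2 (0.10). NPRC-/-ApoE-/- 3 weighed in the other direction: without it, Msln was at -3.61, Upk3b at -4.17 and Upk1b at -4.5, and Krt19 passed the criterion at -4.65 ± 1.74 (edgeR adjusted p = 0.77), a fit in which 2.51% of loci were called lower. By title, Wt1, Krt18, Krt19 and Gpm6a stayed below 0 whichever library was left out.

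**Figure D2:**
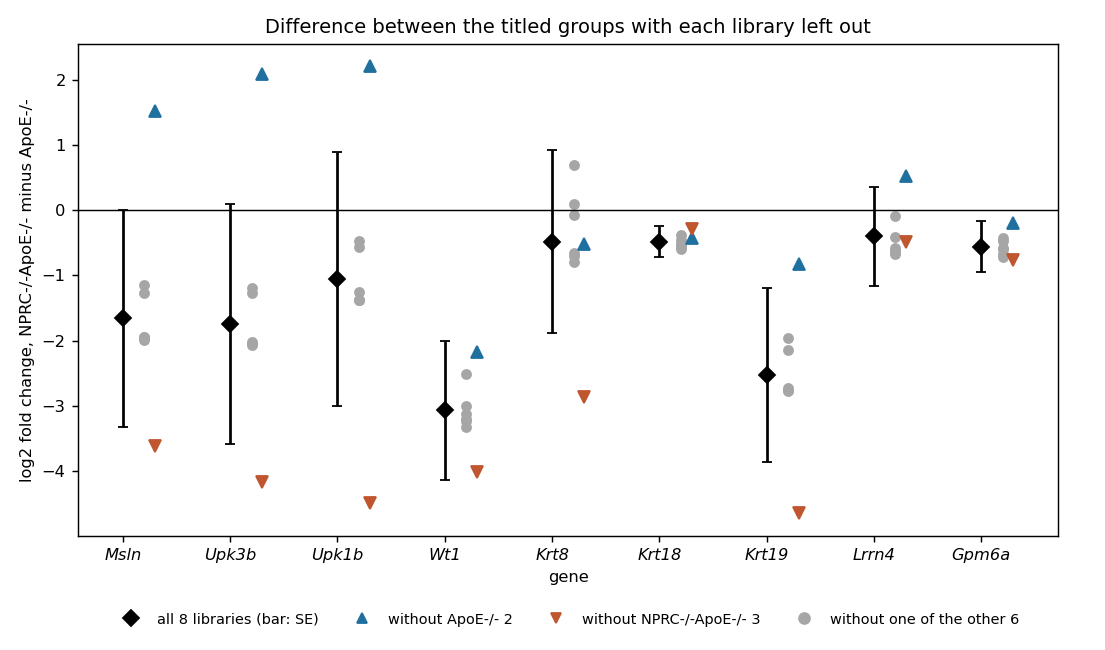
Log2 fold change of NPRC-/-ApoE-/- against ApoE-/- by title (vertical axis) for each gene (horizontal axis). Diamonds are the fit of all 8 libraries with the SE as bar, triangles the fits without ApoE-/- 2 (pointing up) and without NPRC-/-ApoE-/- 3 (pointing down), and grey circles the fits without one of the other 6. For Msln, Upk3b and Upk1b the 2 triangles lie on opposite sides of 0, from -4.5 to 2.21, while for Wt1 every fit lies between -4.02 and -2.18.

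By genotype entry, 0 of the 9 members passed the criterion, against 1.76% of loci in either direction (785 of 44689), and 0 loci had an adjusted p below 0.05 in edgeR with 992 at an unadjusted p below 0.05 and no other tool run. Wt1 had a log2 fold change of -0.54 ± 1.26 (adjusted p = 1) under this grouping, and its groups overlapped. Krt8 was the member with the smallest p, at 2.42 ± 1.18 (edgeR adjusted p = 1), which is the opposite sign of its difference by title. It passed the criterion without ApoE-/- 2 (3.2 ± 1.25, edgeR adjusted p = 1) and without ApoE-/- 4 (2.91 ± 1.21, edgeR adjusted p = 0.833), where 0.918% and 1.16% of loci were called higher. With no library left out, Msln was at -1.67 ± 1.69, Upk3b at -1.69 ± 1.87, Upk1b at -1.18 ± 1.99 and Krt19 at -1.5 ± 1.41, and Krt18 at -0.03 ± 0.29, all with an edgeR adjusted p of 1. Without ApoE-/- 2 every member was above 0, from 0.08 ± 0.31 for Krt18 to 3.2 ± 1.25 for Krt8. Wt1 was then at 1.14 ± 1.06 and Krt19 at 0.75 ± 1.07, and only Krt8 passed the criterion there. In the 4 libraries whose labels agree, ApoE-/- 1 to 3 and NPRC-/-ApoE-/- 3, the last was above the mean of the first 3 in log2 CPM by 0.73 for Msln, 1.46 for Upk3b, 1.39 for Upk1b, 2.17 for Krt8 and 0.37 for Lrrn4. The difference was -1.54 for Wt1, -0.82 for Krt18, -0.78 for Krt19 and -0.18 for Gpm6a. With 1 library in a group, these differences have no replicate check.

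Across the 8 libraries, members were compared in all 36 pairs on log2 CPM, with exact permutation tests over pairings and Benjamini-Hochberg adjustment over the pairs. In 4 pairs Pearson's r had an adjusted p below 0.05, and in 0 pairs Spearman's rho did. Msln and Upk3b had r = 0.943 (exact permutation p = 0.00169, adjusted p = 0.0321) and rho = 0.69 (exact permutation p = 0.0694). Msln and Upk1b had r = 0.908 (exact permutation p = 0.00179, adjusted p = 0.0321) and rho = 0.875 (exact permutation p = 0.00714). Wt1 and Krt19 had r = 0.923 (exact permutation p = 0.00479, adjusted p = 0.0431) and rho = 0.643 (exact permutation p = 0.0962), and Krt19 and Gpm6a had r = 0.879 (exact permutation p = 0.00419, adjusted p = 0.0431) and rho = 0.619 (exact permutation p = 0.115).

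After leaving out the 2 libraries farthest from the median of the first gene, r was 0.749 for Msln and Upk3b, 0.855 for Msln and Upk1b, 0.573 for Wt1 and Krt19 and 0.62 for Krt19 and Gpm6a. With 6 libraries the smallest exact permutation p is 0.00139, which adjusts to 0.05 for a single pair, so a count of adjusted p-values below 0.05 says nothing here. Without ApoE-/- 2 alone, a step added after the values were seen, the same pairs had r of 0.857, 0.787, 0.868 and 0.674 (exact permutation p = 0.027, 0.0333, 0.0181 and 0.0895), each with an adjusted p above 0.05, and the median r over the 36 pairs was 0.218 instead of 0.569. Krt18 was set against the surface proteins in those 7 libraries, with r of -0.898 to Msln (exact permutation p = 0.0161, adjusted p = 0.217), -0.882 to Upk1b (exact permutation p = 0.00476, adjusted p = 0.171) and -0.732 to Upk3b (exact permutation p = 0.0671, adjusted p = 0.318), none of which passed the adjustment. Krt8 and Krt18, partners in the same filament, had r = -0.244 (exact permutation p = 0.564) and rho = -0.132 (exact permutation p = 0.758). No correlation is given within the titled groups, which hold fewer than 6 libraries each.

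**Figure D3:**
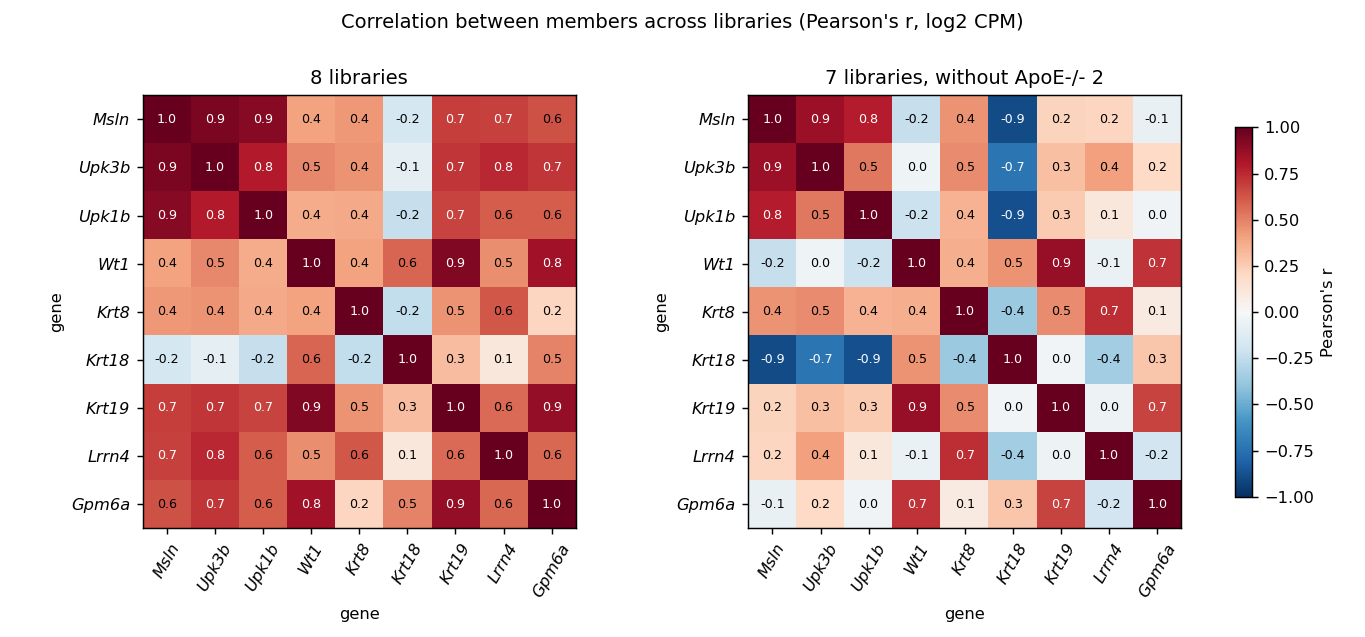
Pearson's r of log2 CPM between each pair of the 9 genes (both axes), over all 8 libraries (left) and over 7 libraries without ApoE-/- 2 (right); colour and printed value give r, from -1 to 1. On the left 32 of the 36 pairs are above 0, on the right 22 are, and the block of Msln, Upk3b and Upk1b stays above 0 while Krt18 turns to -0.898 against Msln.

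Some other genes known from mesothelium showed the peak in ApoE-/- 2 as well. Of a list of 13 such genes, 8 were highest in this library, which was the highest at 12% of the 44689 loci. The lead was small for Krt7 (0.19 FPKM against 0.13 in NPRC-/-ApoE-/- 3) and Rspo1 (1.01 against 0.78 in ApoE-/- 3). Mslnl went the other way, lowest in ApoE-/- 2 at 0.05 FPKM and highest in NPRC-/-ApoE-/- 3 at 0.34. Muc16, a membrane mucin, stood at 0.02, 0.39, 0, 0 and 0.05 FPKM in ApoE-/- 1 to 5 and at 0.02, 0.01 and 0.07 in NPRC-/-ApoE-/- 1 to 3, the same first 2 libraries as Msln. Bnc1, encoding the zinc-finger protein basonuclin, had 0.21 FPKM in ApoE-/- 2 and 0.03 or less elsewhere. Calb2, encoding calretinin, had 0.05 FPKM in ApoE-/- 2, from 8 counts, and was listed at 0 FPKM in the other 7. Upk3bl was listed at 0 FPKM in all libraries but ApoE-/- 1. At the criterion 2.39% of the 20506 loci above the minimum were lower in NPRC-/-ApoE-/-. Of the 4 genes of the list above the minimum (Pdpn, Tbx18, Aldh1a2 and Cldn15), 1 passed it, lower in NPRC-/-ApoE-/-. The median of the 4 was -0.42 on the log2 scale against -0.01 over the 20506 loci.

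That gene was Aldh1a2, which encodes a retinal dehydrogenase that makes retinoic acid. It stood at 3.24, 4.66, 2.69, 3.11 and 2.67 FPKM in ApoE-/- 1 to 5 and at 0.79, 0.42 and 0.57 in NPRC-/-ApoE-/- 1 to 3. The titled groups did not overlap, a separation in this direction seen at 3.66% of the 20506 loci. The log2 fold change was -2.43 ± 0.28 (edgeR adjusted p = 0.0832). Its adjusted p ran from 1.45e-14 in DESeq2 to 1 by genotype entry, where the difference was -0.13. Fibroblasts make this enzyme too, so it is less specific than Msln or Upk3b, and the part of the neuron, macrophage, fibroblast and smooth muscle genes given beside Wt1 in its difference was not tested. Pdpn, encoding podoplanin, had -0.86 ± 0.40 (adjusted p = 0.38), Tbx18 0.35 ± 0.20 (adjusted p = 0.466) and Cldn15 0.02 ± 0.31 (adjusted p = 0.98).

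**Figure D4:**
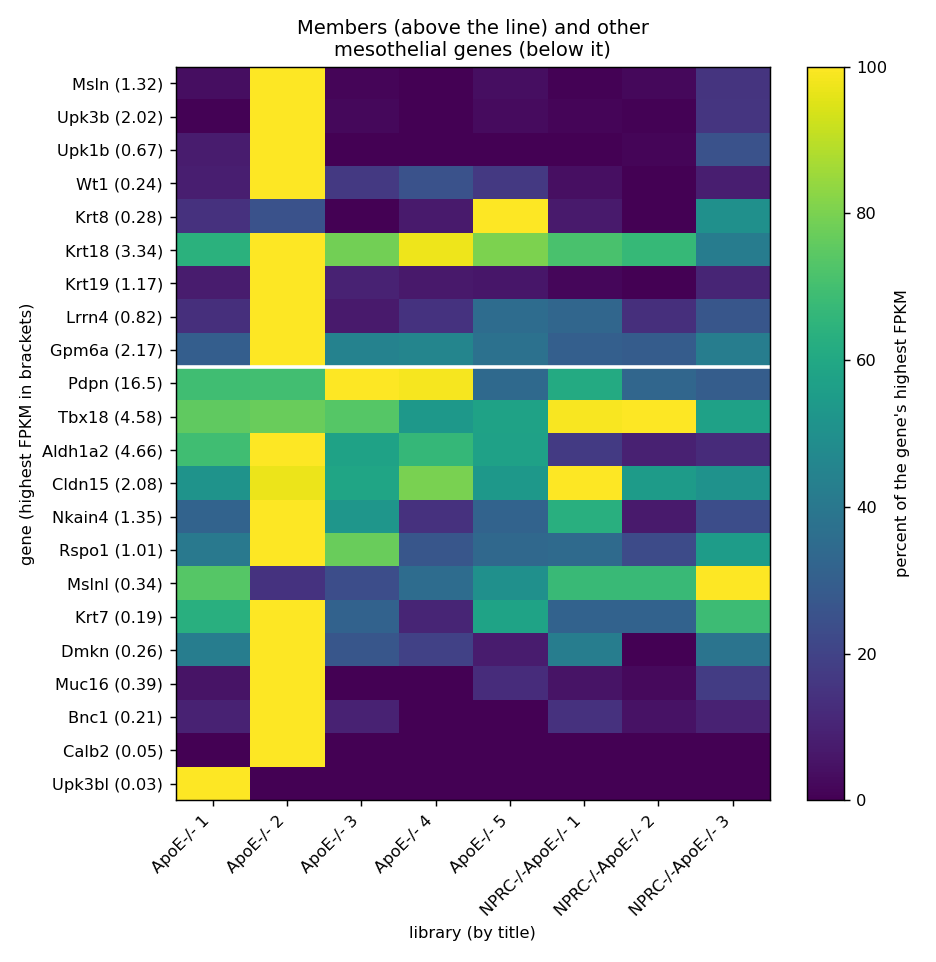
FPKM of the 9 members (above the white line) and the 13 other mesothelial genes (below it) in each library, as percent of the gene's highest library; brackets give that highest FPKM. The column of ApoE-/- 2 is at or near the maximum for most rows, with exceptions in Krt8, Pdpn, Tbx18, Mslnl and Upk3bl. Pdpn is at 11.5 FPKM there against 16.5 in ApoE-/- 3, and Tbx18 at 3.53 against 4.58 in NPRC-/-ApoE-/- 2. In the row of Aldh1a2 the 3 libraries titled NPRC-/-ApoE-/- lie at 0.42 to 0.79 FPKM, below the 5 titled ApoE-/-.

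Of 21 junction and identity genes, 3 were above the minimum (Dsp, Jup and Cldn3), which are desmosomal or claudin genes not limited to epithelium, and 0 of the 3 passed the criterion. Dsp, encoding desmoplakin, had the smallest p, at 0.93 ± 0.28 (edgeR adjusted p = 0.284), with the highest levels in NPRC-/-ApoE-/- 2 (23.3 FPKM) and NPRC-/-ApoE-/- 3 (23.8 FPKM). In the fit without a minimum, where 3.45% of loci were called lower, 3 of 20 passed, all lower in NPRC-/-ApoE-/-: Dsg2 (-4.28 ± 1.49, adjusted p = 0.392), Ehf (-1.54 ± 0.61, adjusted p = 0.437) and Cdh1 (-1.42 ± 0.63, adjusted p = 0.475). By genotype entry 0 of the 20 passed, with Dsg2 at -2.04 ± 1.61, Ehf at -0.68 ± 0.72 and Cdh1 at -0.28 ± 0.74. Dsg2, a desmosomal cadherin, had 170 counts in ApoE-/- 2 and 20 or fewer in each other library. Epcam, the epithelial adhesion molecule, stood between 0 and 0.14 FPKM, and Elf3 was at a count of 0 in all 8 libraries. Of the 10 stratified epithelial genes, the keratins Krt5, Krt14 and Krt15 were at 0.05 FPKM or less, Krt10 ran from 0.02 to 0.6, and Sfn, whose locus also carries the name Zdhhc18, from 1.69 to 3.72. Of the 9 lung genes with a locus, the surfactant genes Sftpc and Sftpb were at 0.09 FPKM or less and Sftpd and Scgb3a2 at 0, while Scgb1a1 reached 1.57 in ApoE-/- 1, Hopx ran from 0.27 to 1.22 and Ager from 0.17 to 0.51. Of the 7 thymic genes, Foxn1, which defines thymic epithelium, was listed at 0 FPKM throughout, while Ccl25 ran from 0.69 to 1.73 and Pax1 from 0.41 to 1.31. The sums were 2.15 to 3.98 FPKM for the stratified list and 1.33 to 3.01 for the thymic list, with overlapping titled groups. The lung sums did not overlap by title, at 1.59 to 2.95 FPKM in ApoE-/- against 0.74 to 1.02 in NPRC-/-ApoE-/-. By genotype entry they did, at 0.79 to 2.95 against 0.74 to 1.69. A separation by title in this direction was seen at 3.34% of single loci. Without a minimum, 2 of 7 lung genes were called lower by title, Hopx and Sftpb, and 0 by genotype entry. By title Hopx had -1.34 ± 0.34 (edgeR adjusted p = 0.255) and Sftpb -2.26 ± 0.97 (edgeR adjusted p = 0.463). ApoE-/- 2 was the highest library for 8 of the 21 junction and identity genes, against 12% of the 44689 loci. For the stratified, lung and thymic lists it was the highest library for 2, 0 and 1 of their genes.

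Some markers of other tissues were also high in ApoE-/- 2. Of the 10 white fat genes, 7 were highest there, and their summed level was 445 FPKM against 119 to 328 in the other libraries. Of the 10 cardiomyocyte genes, 4 were highest there, with a sum of 18.1 FPKM against 3.74 to 14.4, and the atrial gene Myl7 stood at 2.08 FPKM against 0 to 0.88. The sum of the 9 members was 11.8 FPKM in ApoE-/- 2 and 3.03 to 4.53 FPKM in the other 7. Smooth muscle genes, which define the wall itself, were abundant in every library (summed 1371 to 3030 FPKM), and 0 of 10 were highest in ApoE-/- 2. The part of adjoining tissue in the levels of the members was not tested.

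Of genes at a mean of at least 1 FPKM, those whose profile over the 8 libraries was most like the mean standardized profile of Msln, Upk3b, Upk1b, Lrrn4 and Wt1 were Ikbip (r = 0.949), 0610039K10Rik (r = 0.935), Mepce (r = 0.927), Prim2 (r = 0.923) and Ube2o (r = 0.922), followed by Mir5618, Decr2, Ascc1, Trit1, Gm17415, Ackr3, Fech, Ikzf2, Hist2h3c2 and Nrip1. In these 15, all highest in ApoE-/- 2, r was 0.862 or above among 17190 loci ranked, and 6 of the 15 were also named on the log2(FPKM + 1) scale. The 15 were picked for a high r to members that peak in ApoE-/- 2, so both traits follow from the choice. Without ApoE-/- 2 their r on log2 CPM ran from 0.535 (Hist2h3c2) to 0.835 (Ascc1), with 0.545 for Fech, 0.582 for Gm17415 and 0.589 for Decr2. On log2(FPKM + 1) the 6 shared genes had r from 0.315 (0610039K10Rik) to 0.901 (Decr2) without ApoE-/- 2, with 0.538 for Ikbip. Ikbip stood at 5.18 FPKM in ApoE-/- 2 and 1.78 to 2.31 in the others, a smaller excess than that of Upk3b. When loci with at least 200 counts were ranked instead, a choice made after the values were seen, Gata4 (r = 0.93) and Muc16 (r = 0.912) were among the first 15. Gata4, which encodes a transcription factor of heart and of mesothelium and its derivatives, stood at 1.07 FPKM in ApoE-/- 2 and 0.03 to 0.08 in the other 7.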

How the data were processed

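Poly(A) RNA of entire aortas was sequenced, and 8 libraries are available. The study reports 5 mice of each genotype for its RNA-seq, against 5 and 3 libraries by title here. After trimming, the authors aligned reads by HISAT2 and built loci by StringTie; the submitters' processing notes name cutadapt 1.9, FastQC and GRCm38. The authors deposited, per assembled locus, raw counts and FPKM values normalized by them to transcript length and library size. How counts were made and whether strand was used are not given in the sources used here. All columns belonged to a sample (0 without one).

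Counts were tested with edgeR 4.0.16 (TMM, quasi-likelihood F test) in R 4.3.3 on 20506 loci with at least 1 FPKM in 3 libraries. As 8 of the 9 members fell below this minimum, their values come from the same fit on all 44689 loci with a count, which departs from the planned main fit. P-values were adjusted by Benjamini-Hochberg over all loci of a fit. Log2 CPM used a prior count of 2. The fits were tested on simulated data. All 9 members, Npr3, called or leading genes of the companion lists and the 15 genes most like the mean of 5 mesothelial members were to be named; all 5 were used, as none passed the minimum. Members and lists were chosen with earlier results of these data known. Alternatives were the genotype entries, other filters and scaling, DESeq2 1.42.0, limma 3.58.1 on log2(FPKM + 1) and log2(FPKM + 0.1), a replicate block and leaving out each library. Total counts of 62969165 to 86693276 per library make 3 counts equal to 0.0346 to 0.0476 CPM, so low members carry large counting error. No pair of libraries differed by as little as sampling noise.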

Additional observations from a re-analysis of the deposited data

Results flagged for a closer look

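Within each group of 5 ApoE-/- libraries, the highest or lowest value was compared with the range of the group by Dixon's criterion, by which chance marks about 1 group in 20. Of 18 groups of FPKM values, 14 held a value far from the others, 13 of them in ApoE-/- 2. On the log2 CPM scale 3 of the 18 did. Each member enters under both groupings, which share ApoE-/- 1 to 3, so the groups are not independent. Their count can therefore not be set against chance. The values were 1.32 for Msln, 2.02 for Upk3b, 0.67 for Upk1b, 0.24 for Wt1, 1.17 for Krt19 and 2.17 for Gpm6a, each in ApoE-/- 2 and marked by title and by genotype entry. Lrrn4, at 0.82 in ApoE-/- 2, was marked by genotype entry alone. Krt8, at 0.28 in ApoE-/- 5, was marked by title alone.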

How the results depend on the processing

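Most members below the minimum rest on few counts in most libraries, which limits the precision of their differences. Of the members called by title, 0 of 1 passed with the minimum and 1 of 9 without it. Without it, 0 passed by genotype entry, in each of the 3 limma fits or with the replicate block; 0 passed at a mean of at least 0.1 FPKM, which leaves out Wt1 and Krt8 and so could not call Wt1; and 2 passed in the 6 libraries numbered 1 to 3 without the block; leaving out each library gave 0 to 2. The call of Wt1 was lost without ApoE-/- 2. By genotype entry, leaving out each library gave 0 to 1.

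Signs reversed for Msln (0.73 in the 4 libraries whose labels agree), Upk3b (1.46 there, 0.01 with the replicate block), Upk1b (1.39), Lrrn4 (0.37, and 0.3 with the block) and Krt8 (2.17, 2.42 by genotype entry and 0.59 in the 6 libraries without the block). By genotype entry without ApoE-/- 2, Wt1 (1.14), Krt18 (0.08), Krt19 (0.75) and Gpm6a (0.34) were above 0 too. By title, leaving out each library gave -3.61 to 1.52 for Msln, -4.17 to 2.09 for Upk3b, -4.5 to 2.21 for Upk1b, -2.87 to 0.69 for Krt8 and -0.67 to 0.53 for Lrrn4. It gave -4.65 to -0.82 for Krt19, -4.02 to -2.18 for Wt1, -0.6 to -0.29 for Krt18 and -0.77 to -0.2 for Gpm6a. Of 157 recomputed differences of members, 131 kept direction and side of the criterion, and 0 of those tested had an adjusted p below 0.05; DESeq2 gave no p for Msln, Upk3b, Upk1b and Krt19, which are not among them. The cause of these changes, beyond the libraries left out, was not tested. Correlations of same-numbered libraries were -0.27, -0.13 and -0.01, and those of differently numbered libraries ran from -0.17 to 0.25. So few values cannot tell whether a shared number means a shared origin. The block moved the count of members called from 2 to 0.

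Of the other mesothelial genes, 1 passed by title and 0 by genotype entry with the minimum, and without it 1 passed under each grouping (Aldh1a2 by title, Bnc1 by genotype entry at -3.28 ± 1.47, edgeR adjusted p = 1), and leaving out each library gave 1 to 2. Of the junction genes, 0 passed with the minimum, 3 without it, 1 with array weights and 1 in the 6 libraries without the block, and leaving out each library gave 0 to 1. Pairs of members with an adjusted p below 0.05 numbered 4 on log2 CPM, 8 on log2(FPKM + 1), 0 without the 2 farthest libraries, where a single pair could not fall below 0.05, and 0 without ApoE-/- 2. Each member had 1 locus, so summing loci could not be tried, and differences of fold change between members were not run. The genotype-entry fits without each library and the correlations without ApoE-/- 2 were added after seeing the data.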
